A study of Mus musculus with 3 samples.

Results

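The comparison of 2 H3K9ac CUT&Tag libraries of old mouse haematopoietic stem cells (HSCs), 1 carrying the label ABC and 1 without it, rests on 66496 of the 187421 summits listed for the 3 libraries of the study. A summit is the 1 bp position of highest signal in a called peak. The members were the 33248 highest-scoring summits of the library labelled old HSC ABC (73.3% of the 45386 it listed) and the same number from the library labelled old HSC (30.6% of 108787). These 2 sets are called equal-length lists, and 33248 is the length of the shortest list, that of the third library, young HSC. The lowest scores kept were 2.84 in the ABC-labelled and 5.86 in the old-labelled list. Scores were used only to rank summits within a list, rank 1 being the highest score, except in 2 alternative settings of the closing section that put 1 lowest score on both lists. All mice were wild type. Both old groups came from bone marrow of animals aged 18 to 24 months and the young group from animals of 2 to 4 months, with 50000 sorted HSCs per assay. What ABC stands for, the surface markers of the sort and the number of mice per library stay unknown here, since no source used gives them. Each group had 1 library, so no difference could be tested and no p-value is given.

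The sample names inside the peak names went against the labels. The old-labelled list carried the name oHSC-ABC-H3K9ac-1 and the ABC-labelled list the name oHSC-H3K9ac-2. The young-labelled list carried oHSC-H3K9ac-1. Libraries are called by their labels here. If the peak names were right, every direction between the pair would turn, and every comparison with the young-labelled list would be with another library of old HSCs. Read depth is unknown for these files. Intervals in brackets are exact 95% Clopper-Pearson intervals on numbers of summits or genes. They cover counting error only and hold no spread between libraries.

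H3K9ac is acetylation of lysine 9 on the tail of histone H3. Acetyltransferases such as those of the SAGA and ATAC complexes write the mark, histone deacetylases remove it, and it marks the nucleosomes beside start sites of active genes and many enhancers. In CUT&Tag an antibody to the mark carries a transposase that cuts and tags the DNA next to it, so a peak stands for many such cuts. HSCs sit at the top of blood formation. Factors such as Runx1, Gata2 and Meis1 hold their identity, often through enhancers far from the gene, and ageing HSCs are known for a bias towards myeloid output and for raised inflammatory and immediate early programmes.

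Promoters of 8 genes are printed because they span the classes found: end summits in both lists, in the old-labelled list alone and in the ABC-labelled list alone. A summit up to 1 kb from the start or the end of such a record, for protein-coding genes, is called an end summit. Each sequence runs from 250 bases before to 50 after the start site, 5′ to 3′ on the gene's strand, from RefSeq on GRCm38.p6, which has the coordinates of mm10. Capitals mark each CG dinucleotide. Rbm5, which encodes an RNA-binding splicing regulator (chr9:107770953-107771252, minus strand), and the AP-1 gene Jun (chr4:95052173-95052472, minus strand) were marked in both lists. Kit, the stem cell factor receptor (chr5:75574737-75575036, plus strand), the proteasome subunit gene Psma7 (chr2:180042415-180042714, minus strand), the NF-kB inhibitor gene Nfkbia (chr12:55492598-55492897, minus strand) and the cytokine gene Tnf (chr17:35201958-35202257, minus strand) were marked in the old-labelled list alone. The osteoblast gene Bglap (chr3:88384417-88384716, minus strand) and the beta-defensin gene Defb6 (chr8:19225228-19225527, plus strand) were marked in the ABC-labelled list alone.
Rbm5: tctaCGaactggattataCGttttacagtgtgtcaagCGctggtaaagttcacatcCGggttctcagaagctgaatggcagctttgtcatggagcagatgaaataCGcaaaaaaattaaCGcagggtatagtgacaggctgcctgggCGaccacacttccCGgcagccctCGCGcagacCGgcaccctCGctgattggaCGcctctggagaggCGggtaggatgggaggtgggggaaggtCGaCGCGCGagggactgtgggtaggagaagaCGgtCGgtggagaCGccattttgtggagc
Jun: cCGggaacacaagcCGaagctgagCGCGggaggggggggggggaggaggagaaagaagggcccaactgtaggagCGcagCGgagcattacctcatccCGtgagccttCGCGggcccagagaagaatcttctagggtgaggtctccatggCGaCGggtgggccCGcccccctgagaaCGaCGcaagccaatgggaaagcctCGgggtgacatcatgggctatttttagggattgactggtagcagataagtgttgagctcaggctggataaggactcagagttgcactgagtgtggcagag
Kit: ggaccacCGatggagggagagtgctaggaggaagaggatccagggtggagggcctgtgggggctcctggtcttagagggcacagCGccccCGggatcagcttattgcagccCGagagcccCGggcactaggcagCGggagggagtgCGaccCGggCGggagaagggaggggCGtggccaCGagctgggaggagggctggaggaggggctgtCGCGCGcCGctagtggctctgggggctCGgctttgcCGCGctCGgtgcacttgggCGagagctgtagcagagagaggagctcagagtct
Psma7: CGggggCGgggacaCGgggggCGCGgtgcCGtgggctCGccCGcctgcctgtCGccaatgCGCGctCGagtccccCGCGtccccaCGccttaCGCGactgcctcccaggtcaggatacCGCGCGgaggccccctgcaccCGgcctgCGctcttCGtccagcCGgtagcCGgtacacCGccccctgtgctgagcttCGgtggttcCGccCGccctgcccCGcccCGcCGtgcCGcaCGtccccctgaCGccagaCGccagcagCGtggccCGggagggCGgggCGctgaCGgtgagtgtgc
Nfkbia: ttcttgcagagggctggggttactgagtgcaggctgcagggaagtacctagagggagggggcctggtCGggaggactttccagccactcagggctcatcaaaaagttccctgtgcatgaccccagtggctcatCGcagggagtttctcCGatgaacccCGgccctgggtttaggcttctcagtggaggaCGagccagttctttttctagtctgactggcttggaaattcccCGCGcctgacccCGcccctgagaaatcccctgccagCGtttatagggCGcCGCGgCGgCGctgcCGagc
Tnf: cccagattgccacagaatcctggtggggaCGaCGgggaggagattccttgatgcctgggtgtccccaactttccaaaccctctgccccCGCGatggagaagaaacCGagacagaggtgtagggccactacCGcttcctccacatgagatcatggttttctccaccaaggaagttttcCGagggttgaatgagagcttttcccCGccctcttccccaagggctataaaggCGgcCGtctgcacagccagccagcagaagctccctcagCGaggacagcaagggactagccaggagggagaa
Bglap: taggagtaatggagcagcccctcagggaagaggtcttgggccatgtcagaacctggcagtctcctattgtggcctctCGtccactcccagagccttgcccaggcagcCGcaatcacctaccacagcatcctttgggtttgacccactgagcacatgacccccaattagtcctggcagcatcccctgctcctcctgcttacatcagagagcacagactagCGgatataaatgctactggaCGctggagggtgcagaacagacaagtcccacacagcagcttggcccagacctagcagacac
Defb6: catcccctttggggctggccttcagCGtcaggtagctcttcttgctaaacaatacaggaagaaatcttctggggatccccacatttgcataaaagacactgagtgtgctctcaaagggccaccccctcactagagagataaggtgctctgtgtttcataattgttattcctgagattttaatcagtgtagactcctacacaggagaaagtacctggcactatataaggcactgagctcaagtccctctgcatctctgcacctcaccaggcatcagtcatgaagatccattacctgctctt

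The printed windows held 21 CG dinucleotides at Rbm5, 15 at Jun, 20 at Kit, 41 at Psma7, 15 at Nfkbia, 11 at Tnf, 4 at Bglap and 1 at Defb6. Every summit named here for these genes fell inside its window. At Rbm5 the summits lay 14 bp (old-labelled) and 13 bp (ABC-labelled) downstream of the start site, and at Jun 45 and 39 bp downstream. The old-labelled summit of Kit lay 47 bp downstream of its start site, and those of Psma7, Nfkbia and Tnf lay upstream, at -64, -204 and -135 bp. The ABC-labelled summit lay at -186 bp for Bglap and 3 bp downstream for Defb6. The 8 genes were picked after their values were seen.

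Gene ends were the places where the lists agreed most. Of the ABC-labelled equal-length list, 9050 summits (27.2%) were gene-end summits, and 79.0% of them (78.1 to 79.8) had an old-labelled summit within 500 bp, the distance that counts as shared. Of the 9594 gene-end summits of the old-labelled list (28.9%), 73.8% were shared (72.9 to 74.7). Distal summits, over 10 kb from any end of a protein-coding gene, made up 45.5% of the ABC-labelled list (15112) and 44.8% of the old-labelled list (14901). Their shared shares were 46.2% (45.4 to 47.0) and 46.5% (45.6 to 47.3). Most distal summits, 9567 ABC-labelled and 9244 old-labelled ones, lay inside a protein-coding gene record, and 45.0% and 46.3% of these were shared. The 5545 and 5657 outside all such records were shared at 48.2% and 46.8%. Summits between 1 and 10 kb stood near the distal ones, at 49.7% and 50.8%. Where summits were shared they coincided closely, with a median distance of 56 bp at gene ends and 68 bp at distal places in the ABC-labelled list.

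The contrast by place moved with rank. Each list was divided into eighths by score. In the first eighth 95.3% of gene-end and 95.1% of distal ABC-labelled summits were shared, and in the old-labelled list the values were 96.0% and 95.5%. The strongest sites were thus shared at both kinds of place. Gene-end summits were concentrated in the 4 upper eighths, which held 74.4% of them against 38.1% of distal summits in the ABC-labelled list, and 81.5% against 33.7% in the old-labelled list.

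The lower ranks differed between the libraries. In the last eighth of the ABC-labelled list 47.5% of gene-end summits (43.0 to 52.1) and 25.0% of distal summits (23.3 to 26.8) were shared. In the last eighth of the old-labelled list the shares were 22.8% (18.4 to 27.6) and 25.4% (23.7 to 27.1). With every eighth given the same weight, gene-end and distal summits stood at 68.7% and 53.7% in the ABC-labelled list and at 52.4% and 56.7% in the old-labelled list. The higher sharing of gene ends at equal rank was therefore seen in the ABC-labelled list alone, and in the old-labelled list distal summits were shared slightly more often. In its middle ranks, the fourth eighth, 50.4% of gene-end summits (47.1 to 53.7) and 57.4% of distal summits (55.2 to 59.5) were shared.

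**Figure D1:**
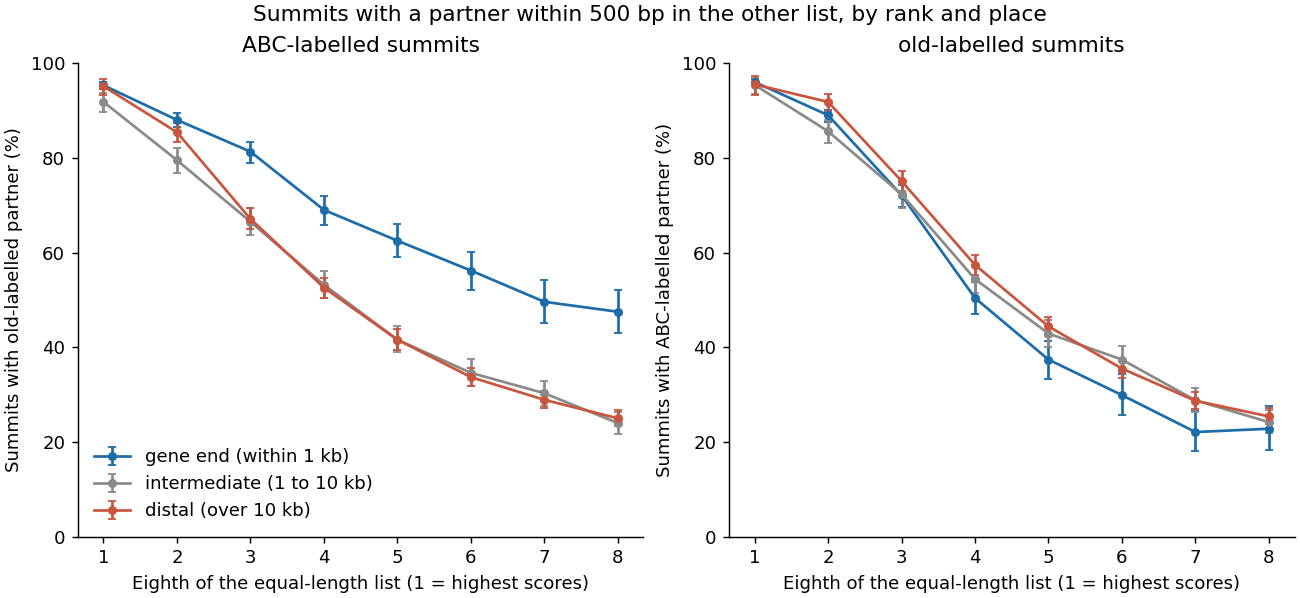
Share of summits with a partner within 500 bp in the other equal-length list (y axis, %) by eighth of the list (x axis, 1 holding the highest scores), for ABC-labelled summits on the left and old-labelled summits on the right. Lines are gene-end (blue), intermediate (grey) and distal (red) summits with 95% Clopper-Pearson intervals: on the left the gene-end line ends at 47.5% and the distal line at 25.0%, on the right all 3 lines lie close together.

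Unshared gene-end summits were of different kinds in the 2 libraries. The ABC-labelled list had 1902, and their median distance to the nearest old-labelled summit of the equal-length list was 958 bp. Of these, 68.7% had one within 2 kb, and 79 (4.15%) had no old-labelled summit within 5 kb in the list as deposited. The old-labelled list had 2511 unshared gene-end summits with a median distance of 6752 bp. Of these 34.7% had an ABC-labelled summit within 2 kb, and 1087 (43.3%) had none within 5 kb as deposited. Most unshared ABC-labelled gene-end summits thus lay within 2 kb of an old-labelled one, whereas many old-labelled ones had no ABC-labelled summit nearby. The lists as deposited differ in length, 108787 old-labelled against 45386 ABC-labelled summits, so an old-labelled neighbour was more readily found there. The ABC-labelled list also placed gene-end summits closer to each other: 29.7% had another summit of their own list within 2 kb, against 16.9% in the old-labelled list.

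Distal summits did not show this asymmetry between the equal-length lists. The median distance of unshared ones to the other list was 15000 bp for the ABC-labelled and 14801 bp for the old-labelled list, and 10.5% and 8.87% had a neighbour there within 2 kb. The lists as deposited gave unequal values. Of the 8135 unshared ABC-labelled distal summits, 58.0% had an old-labelled summit within 500 bp once the whole old-labelled list was used, and 1265 (15.6%) had none within 5 kb. Of the 7979 unshared old-labelled distal summits, 15.1% gained an ABC-labelled partner in this way, and 5103 (64.0%) had none within 5 kb. These shares moved with the lengths of the deposited lists. The young-labelled equal-length list held a partner for 20.2% of the unshared and 63.4% of the shared ABC-labelled distal summits. For old-labelled distal summits the shares were 26.0% and 63.7%.

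**Figure D2:**
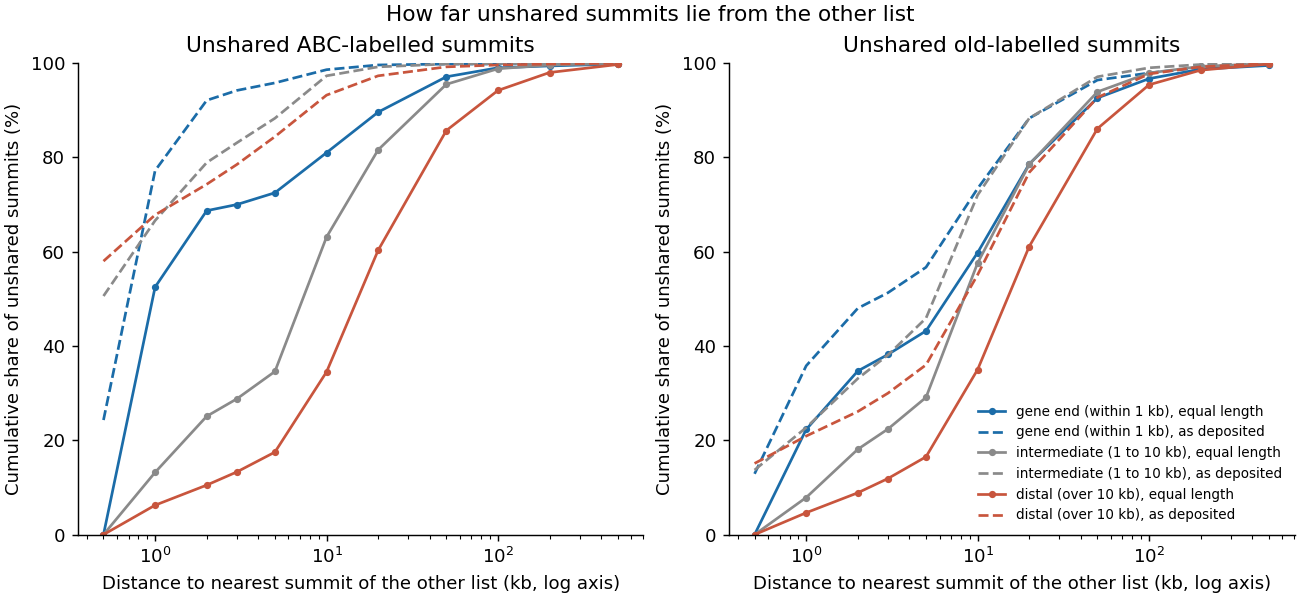
Cumulative share of unshared summits (y axis, %) by distance to the nearest summit of the other library (x axis, kb, log scale), for ABC-labelled summits on the left and old-labelled summits on the right. Solid lines use the equal-length lists and dashed lines the lists as deposited: at 2 kb the solid gene-end line reaches 68.7% on the left and 34.7% on the right.

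Strand and start sites show where around the gene these summits fell. Among summits within 2 kb of an annotated start site, shared ones had a median position 231 bp downstream in the ABC-labelled list (n = 7330) and 229 bp downstream in the old-labelled list (n = 7236), and 76.0% and 77.9% lay downstream. The first nucleosomes of a transcribed gene are known to lie there. Unshared ABC-labelled summits (n = 2042) were spread into the gene, with a median of 429 bp downstream. Of these, 47.0% lay over 500 bp downstream and 42.8% within 500 bp of the start site. Unshared old-labelled summits (n = 2549) had a median of 172 bp downstream, with 30.8% over 500 bp downstream and 58.5% within 500 bp.

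**Figure D3:**
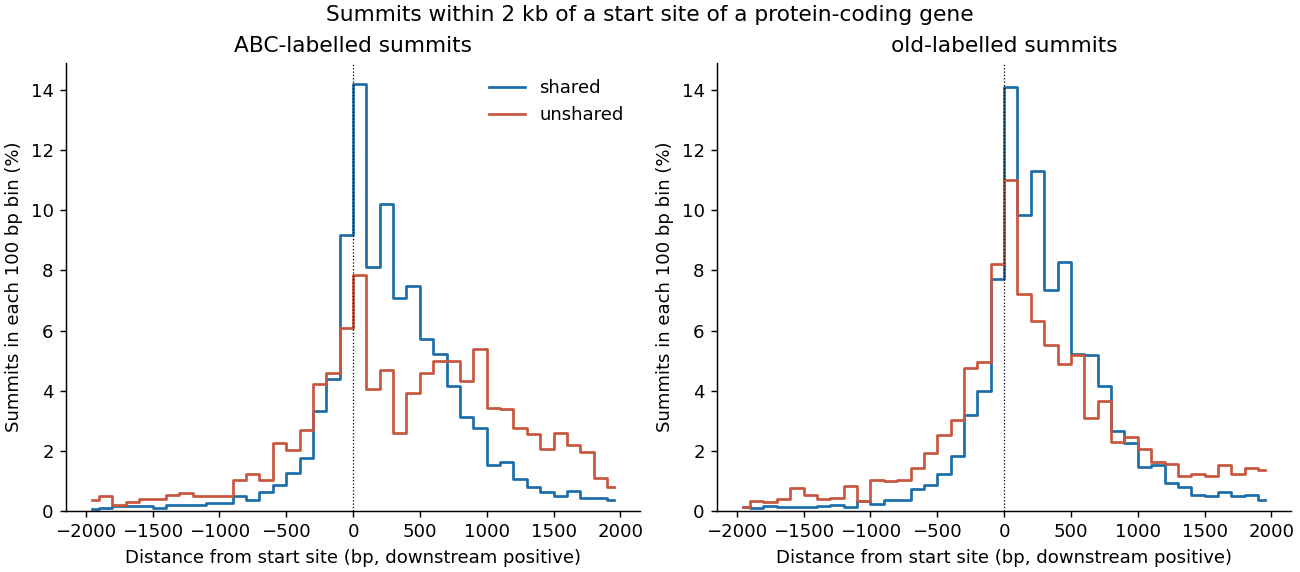
Share of summits in bins of 100 bp (y axis, %) by distance from the start site (x axis, bp, downstream positive), for the ABC-labelled list on the left and the old-labelled list on the right, with shared summits in blue and unshared ones in red. Shared summits peak just downstream of the start site in both lists, and the unshared ABC-labelled summits (median 429 bp) reach further into the gene than the unshared old-labelled ones (median 172 bp).

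By gene, both equal-length lists marked an end of 8163 (37.3%) of 21883 protein-coding genes. The old-labelled list alone marked a further 1800 genes (8.23%) and the ABC-labelled list alone 701 (3.20%). In total the old-labelled list marked 9963 genes (45.5%) and the ABC-labelled list 8864 (40.5%). These 4 percentages are the background for the gene groups described further on. Genes marked in 1 list alone ranked lower there: their median rank was 16354 in the old-labelled list and 19346 in the ABC-labelled one, while genes marked in both had medians of 5008 and 5928. Of the 701 ABC-labelled genes, 363 had an old-labelled end summit in the list as deposited and 24 had no old-labelled summit within 5 kb of an end. Of the 1800 old-labelled genes, 333 had an ABC-labelled end summit as deposited and 672 had no ABC-labelled summit within 5 kb. The young-labelled equal-length list marked 92.6% of the genes in both, 49.4% of the old-labelled class and 38.9% of the ABC-labelled class, and the doubt about the labels covers that library too.

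The gene classes differed in which end was marked and in promoter sequence. Strand was known for part of them. The best summit lay at the 5′ end for 96.2% (old-labelled) and 95.1% (ABC-labelled) of the 6622 genes in both lists, for 88.4% of 1423 genes in the old-labelled list alone (86.6 to 90.0), and for 75.3% of 574 genes in the ABC-labelled list alone (71.5 to 78.7). In 24.7% of the last class the summit lay at the 3′ end only. CpG content followed a similar order. The ratio of observed to expected CG in the promoter window had a median of 0.779 in genes marked in both, 0.713 in the old-labelled class, 0.605 in the ABC-labelled class and 0.276 in genes marked in neither. A ratio of at least 0.6, the level usual for CpG islands, was reached by 75.8%, 63.9%, 50.5% and 25.3% of these promoters, against 48.4% over all 17491. The 6-base TATA motif TATAAA, searched on both strands, was in 6.63% of the promoters of genes in both lists, 8.78% of the old-labelled class, 9.76% of the ABC-labelled class, 19.3% of those in neither and 13.3% of all. The AP-1 motif TGACTCA, also on both strands, was in 2.84%, 3.58%, 4.53% and 6.01% of the 4 classes and 4.56% of all.

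Genes with no summit of the other library as deposited within 5 kb of an end differed in the same way. Of the 530 such old-labelled genes with a promoter entry, 61.1% had a ratio of at least 0.6 (56.8 to 65.3), as did 1 of 19 on the ABC-labelled side, 5.26% (0.133 to 26.0). Ranked by their old-labelled summit, the genes free of ABC-labelled summits inside the record and for 5 kb around it began with Retnlg, a resistin-like gene of granulocytes, at rank 1582 (chromosome 16, 48872608 to 48874498), which lay 120188 bp from the closest ABC-labelled summit. They went on with the histone genes H2ac18 and H3c14, which shared 1 summit at rank 4364, the Toll-like receptor adaptor gene Ticam1 at 5171, Creld1 at 5550 and the interferon-inducible gene Ifi209 at 6006. Next came Gins3, a subunit of the replicative helicase, at 6207, Psma7 at 6475, the ubiquitin ligase subunit gene Fbxo2 at 6736, the histone genes H2ac11 and H2bc11 with a shared summit at 7287, and the chemokine gene Ccl27a at 7340. Of these 12 genes 4 encode core histones, in 2 neighbouring pairs.

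The matching ABC-labelled genes ranked between 16704 and 28817 and include genes known from other tissues. They were Alox12e, an epidermal lipoxygenase gene (16704), Dhrs2 and Wfdc15b (18370 each), Pnmal2 (18659), Clec4e, a C-type lectin receptor gene of macrophages, and the protocadherin gene Pcdhb1 (22954 each). The remaining ones were Foxj1, a factor of ciliated cells (23482), and Defb6, Duxbl1, the interferon gene Ifna6, Nmur2 and Rfpl4 (28817 each, a rank shared by tied scores). The 12 genes on either side come from 401 old-labelled and 15 ABC-labelled genes that met the same rule. Absence was judged in the lists as deposited, and the longer old-labelled list leaves fewer ABC-labelled genes that can meet it. With absence within 5 kb judged in the equal-length lists, 982 old-labelled and 270 ABC-labelled genes stood alone.

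Genes marked in both lists kept much of their order. Across the 8163 genes, the Spearman correlation of ranks was 0.798, a description over genes of the same 2 libraries, and the best summits of 89.1% of them lay within 500 bp of each other. Pairs of nearest summits gave 0.802 at gene ends (7047 pairs) and 0.530 at distal places (6918 pairs). The median difference in rank, ABC-labelled minus old-labelled, was 762, with 5140 genes better ranked in the old-labelled list and 3022 in the ABC-labelled one. Among the strongest genes Rbm5 ranked 50 in the old-labelled list and 59 in the ABC-labelled one, and Eif2s2, a translation initiation factor gene, ranked 43 and 70.

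The largest rank differences at a shared summit were toward the old-labelled list. Dsn1, a kinetochore gene, ranked 4584 in the old-labelled list and 32871 in the ABC-labelled one (chromosome 2, 156995062 to 157007075), with summits 2 bp apart at 157006700 and 157006698. Lyz2, the lysozyme gene of macrophages and granulocytes, ranked 199 and 27913, with both summits near the 3′ end of its record. Mcm5, a subunit of the replicative helicase, ranked 5584 and 33064. Apex2 and Pfkfb1, on 1 summit, ranked 4383 and 30992, and Tatdn2, the zinc transporter gene Slc30a5, the arginine methyltransferase gene Carm1 and Mthfd1, of folate metabolism, followed. The ABC-labelled ranks of these genes lay between 27913 and 33064, close to the end of that list.

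Genes better ranked in the ABC-labelled list began with Gne, the first enzyme of sialic acid synthesis, at rank 31465 in the old-labelled list and 7329 in the ABC-labelled one (chromosome 4, 44034075 to 44084177). The unconventional myosin gene Myo1h ranked 33132 and 9271. Ndufa4l2 and Stac3, on 1 summit, ranked 29673 and 6216. The co-stimulatory ligand gene Cd80 ranked 32542 and 10065. Entpd3, Bdh2, Megf10 and the collagen chaperone gene Serpinh1 followed. For these genes the old-labelled ranks were the low ones, from 28752 to 33132.

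**Figure D4:**
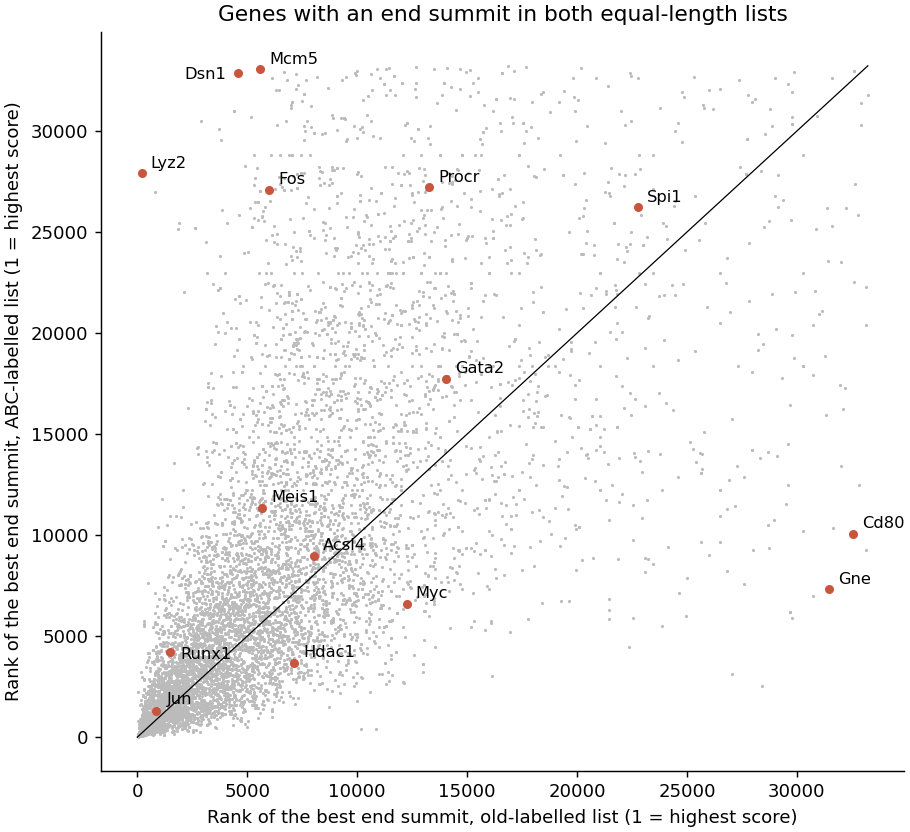
Rank of the best end summit of each of the 8163 genes marked in both equal-length lists, old-labelled on the x axis and ABC-labelled on the y axis (1 is the highest score), with the line of equal rank and selected genes in red. More genes lie above the line (5140, better ranked in the old-labelled list) than below it (3022).

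The HSC label was checked against genes of HSC identity. Of 26 self-renewal factors, the old-labelled list marked 16 and the ABC-labelled list 12 (61.5% and 46.2%, against 45.5% and 40.5% of all genes). The 4 that differed were old-labelled: Lyl1 at rank 12947, Gfi1b at 15725, Myb at 18270 and Gfi1 at 19662, all transcription factors of blood progenitors. The 12 in both lists were evenly split, with 6 better ranked in either list and a median difference in rank of -571, against 762 over all genes. On the old-labelled side, Runx1 ranked 1466 in the old-labelled list and 4212 in the ABC-labelled one, Meis1 5670 and 11352, and Gata2 14055 and 17749. On the ABC-labelled side, Mycn ranked 27208 and 11425, Myc 12248 and 6600, and Hoxb4 9512 and 5430. Tal1, whose product forms complexes with that of Gata2, ranked 2055 and 421. Mecom, Hlf and Hoxa9 had no end summit in either equal-length list. Mecom had its nearest summits 1493 bp (old-labelled) and 1406 bp (ABC-labelled) from an end, and 8 and 7 inside its record, so the gene was marked outside the 1 kb window.

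Of 23 HSC surface receptor genes, 14 and 13 were marked. Flt3, the receptor of early multipotent progenitors (rank 7205), Kit (8611), the endothelial and HSC adhesion gene Esam (16753) and Slamf1, which encodes CD150 (21315), were in the old-labelled list alone. Ly6e (6404), the chemokine receptor gene Cxcr4 (11368) and Ly6a, which encodes Sca-1 (17990), were in the ABC-labelled list alone. Several of these turned on distance or on list length. The nearest ABC-labelled summit at Kit lay 1304 bp from an end and at Slamf1 1453 bp, and the nearest old-labelled one at Cxcr4 lay 1407 bp away. Flt3 had an ABC-labelled end summit as deposited (score 2.47), and Ly6e and Ly6a had old-labelled ones (3.67 and 4.87), all below the scores kept. Of the 10 genes in both lists, 4 were better ranked in the old-labelled list and 6 in the ABC-labelled one, with a median difference of -820. Procr, which encodes EPCR, ranked 13266 in the old-labelled list and 27224 in the ABC-labelled one, and Cd27 550 and 1032. Cd34 ranked 4328 and 15983, with its summits at opposite ends of the record, so these are not the same site. The adhesion gene Alcam ranked 10865 and 4994, and the integrin genes Itgb3 10703 and 7029 and Itga6 4914 and 3337.

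NF-kB and inflammatory genes formed the list with the most members on the old-labelled side. Of 26, the old-labelled list marked 22 and the ABC-labelled list 13, with 9 in the old-labelled list alone and 0 in the other. The 9 included 2 transcription factor subunits, Nfkb1 (rank 1504) and Rel (2954), the signalling adaptors Ticam1 (5171) and Myd88 (27394), the inhibitor Nfkbia (7851), the cytokines Tnf (9507), Il10 (17769) and Il6 (31881), and the inflammasome sensor Nlrp3 (27517). Of the 13 in both, 9 were better ranked in the old-labelled list, with a median rank of 1739 against 6502 and a median difference of 2911, against 762 over all genes. The subunit gene Rela ranked 792 in the old-labelled list and 6122 in the ABC-labelled one, and the kinase gene Ikbkb 1506 and 10971. The other kinase subunits were near equal: Chuk ranked 979 and 899, and Ikbkg 1131 and 1042.

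Distances and scores of the missing calls varied among these 9 genes. At Rel, Nfkbia and Tnf the ABC-labelled list as deposited did hold end summits, with scores of 2.58, 2.47 and 1.74, below the 2.84 kept. The nearest ABC-labelled summits lay just outside the window at Nfkb1 (1012 bp), Il10 (1036 bp), Myd88 (1308 bp) and Nlrp3 (1569 bp). At Ticam1 and Il6 they lay 13332 and 53125 bp away. As deposited, 23 and 17 of the 26 genes were marked.

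AP-1 and immediate early genes, which encode transcription factors and phosphatases induced within minutes of a stimulus, stood at 19 and 12 of 24, with 7 in the old-labelled list alone and 0 in the other. These were Zfp36, an RNA-binding protein that destabilises cytokine messages (rank 6173), the AP-1 subunits Junb (7528), Jund (14684) and Fosl1 (16738), the stress gene Ier3 (9400), the phosphatase Dusp5 (13868) and Egr1 (22039). At 5 of them, Junb, Jund, Ier3, Dusp5 and Egr1, the nearest ABC-labelled summit as deposited was between 7257 and 28192 bp away. Fosl1 had one at 4959 bp, and Zfp36 an end summit of score 2.52 as deposited. The members in both lists did not share 1 direction. Fos ranked 6012 in the old-labelled list and 27093 in the ABC-labelled one, and the stress factor Atf3 10170 and 27789. Jun ranked 828 and 1291. The nuclear receptor gene Nr4a2 was better ranked in the ABC-labelled list (3118 and 1026), as was the phosphatase gene Dusp1 (8442 and 3938). Junb and Egr1 also stood among the 6 HSC ageing genes marked in the old-labelled list alone, with Slamf1, Tgm2, Gpr183 and Mt2. The ageing list counted 18 and 13 of 30, and its 1 gene on the ABC-labelled side was Osmr (30975). Its 12 genes in both lists were split 6 and 6.

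Markers of other cell types were counted beside these groups. The old-labelled list marked 12 of 16 granulocyte markers and the ABC-labelled list 8. In a bulk library fewer cells of a type and less of the mark per cell cannot be told apart. Old-labelled alone were Ngp (rank 45), Camp (137) and Retnlg (1582), genes of granule and secreted proteins of maturing neutrophils, with the proteases Elane (20041) and Mmp8 (20773). At Ngp and Camp an ABC-labelled summit as deposited did lie inside the record or within 5 kb of an end. Retnlg had none there, the closest being 120188 bp away. The ABC-labelled list alone held Cebpa (3937), the factor that starts the granulocyte programme. There an old-labelled summit as deposited lay inside the record or within 5 kb of an end. S100a8 and S100a9, the calprotectin genes, ranked 13 and 17 in the old-labelled list and 807 and 2253 in the ABC-labelled one. Cxcr2, Mmp9 and Prtn3 had no end summit in either equal-length list. Among the 7 in both lists, 5 were better ranked in the old-labelled list and 2 in the ABC-labelled one. Their median difference was 794, near the 762 over all genes. The number of markers marked leaned to the old-labelled list, as in the NF-kB and AP-1 lists. The part of granulocyte markers in those counts was not tested. Monocyte and macrophage markers stood at 4 and 4 of 10. Megakaryocyte and platelet markers stood at 7 and 6 of 16, T and NK cell markers at 7 and 6 of 18, B cell markers at 4 and 3 of 15, and erythroid markers at 1 and 2 of 15. Of 26 control genes of other tissues 4 and 2 were marked (15.4% and 7.69%).

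Stroma and endothelium markers, counted apart from the marker lists above, had the widest lean of the 25 lists to the ABC-labelled side. The old-labelled list marked 4 of 16 genes and the ABC-labelled list 10, with 6 in the latter alone. These were the endothelial genes Kdr (rank 12236), Vcam1 (28817) and Cdh5 (31706), the osteoblast genes Bglap (19346) and Sp7 (26039), and the collagen gene Col1a2 (28817). All 6 had an old-labelled end summit as deposited, with scores from 2.13 to 5.65, below the 5.86 kept. The lists as deposited marked 11 and 10 of the 16, so the lean did not hold there. The 4 in both, Eng, Emcn, Tie1 and Pdgfrb, were all better ranked in the old-labelled list; Pdgfrb stood at 5584 and 27013.

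Ferroptosis is cell death by iron-dependent lipid peroxidation. The old-labelled list marked 26 of its 36 genes and the ABC-labelled list 20, with 6 and 0 in 1 list alone. The 6 were the antioxidant regulator Nfe2l2 (rank 1325; nearest ABC-labelled summit 1148 bp from an end), the ferritin heavy chain gene Fth1 (10106; an ABC-labelled score of 2.82 as deposited), the phospholipid-remodelling enzyme Lpcat3 (12312), the lipoxygenase Alox12 (14072), the electron donor Por (14971) and Aifm2, which regenerates ubiquinol (19995). Of the 20 in both, 16 were better ranked in the old-labelled list, with a median difference of 1809. Over all genes marked in both, 5140 of 8163 were better ranked there, with a median difference of 762. The iron importer gene Tfrc ranked 3410 and 12515 and Trp53 4777 and 18058. Acsl4, which primes membranes for peroxidation, ranked 8032 and 8988, at summits more than 500 bp apart. Slc3a2, the heavy chain of the cystine transporter, ranked 357 and 1044. Gpx4 and Slc7a11 had no end summit in either list.

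Sphingolipid genes showed no lean in number, with 24 of 40 marked in each list and 5 in each list alone. In the old-labelled list alone were the ceramide kinase gene Cerk (9604), the sphingomyelinase Smpd2 (12993), the sphingomyelin synthase Sgms1 (15482), the sphingosine 1-phosphate exporter Spns2 (18415) and the ceramidase Acer2 (21562). In the ABC-labelled list alone were the receptor S1pr4 (6387), the ceramide synthases Cers6 (9898) and Cers2 (19069), the sphingomyelinase Smpd3 (18739) and the ceramidase Asah1 (28817). At S1pr4 and Cers6 an old-labelled summit as deposited lay inside the record or within 5 kb of an end. Enzymes of the same step thus stood on both sides. Sphk2 ranked 7652 and 11205. The closest summits to Sphk1 as deposited lay 13252 bp (old-labelled) and 13176 bp (ABC-labelled) from its ends. In both equal-length lists the distance was 40912 bp.

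For histone acetylation enzymes the counts were 25 and 23 of 30. Kat8, the writer of H4K16 acetylation (13281), Sirt6 (14266) and Hdac6 (18072) were in the old-labelled list alone, and Hdac7 (25670) in the ABC-labelled list alone. The acetyltransferase genes Ep300 (4025 and 2560) and Crebbp (6162 and 7583) were near equal in rank. Hdac1 ranked 7142 and 3690, Hdac2 815 and 280 and Hdac3 2577 and 1094, so these 3 class I deacetylase genes were better ranked in the ABC-labelled list. Hdac8, the other gene of that class, ranked 3335 and 5338. Kat2a had its summits at opposite ends of its record, at ranks 33126 and 20399, and these are not the same site.

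Metabolic and clock genes added smaller counts. Glycolysis and hypoxia genes stood at 17 and 13 of 24. Pkm (10886), Pdk1 (12193), Epas1 (14657) and Pgk1 (15626) were among the 6 in the old-labelled list alone, and Pfkp (4086) and the glucose transporter Slc2a3 (10072) were in the ABC-labelled list alone. At Pfkp and Slc2a3 an old-labelled summit as deposited lay inside the record or within 5 kb of an end. Clock genes stood at 10 and 7 of 20. The period genes Per1 (10488), Per2 (22155) and Per3 (27005) and the kinase Csnk1e (19298) were in the old-labelled list alone, and the nearest ABC-labelled summits lay 6233 bp or more from their ends. Bhlhe40 (14052) was in the ABC-labelled list alone, with an old-labelled summit as deposited inside the record or within 5 kb of an end.

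Lists with most of their genes marked left little room for the counts to differ. Oxidative phosphorylation genes stood at 27 and 26 of 30, cell cycle genes at 23 and 23 of 26, interferon-stimulated genes at 23 and 22 of 26, autophagy and lysosome genes at 23 and 20 of 24 and cytosolic ribosomal protein genes at 25 and 23 of 26. The cell cycle genes in both lists nevertheless ranked lower in the ABC-labelled list, with a median of 5588 against 8404 and 17 of 22 better ranked in the old-labelled one. Their median difference in rank was 2128, against 762 over all genes. For the interferon-stimulated genes in both lists it was 2069, with 13 of 21 better ranked in the old-labelled list. The DNA methylation and chromatin regulators stood at 14 and 15 of 26, with the methylcytosine dioxygenase genes on either side: Tet3 (22267) in the old-labelled list and Tet2 (32404) in the ABC-labelled one alone. P53 and senescence genes stood at 15 and 15 of 26, or 57.7% in each list, and so had more room to differ. Among the 13 in both, 10 were better ranked in the old-labelled list. Their median rank was 4777 there and 9466 in the ABC-labelled list, with a median difference of 1134.

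**Figure D5:**
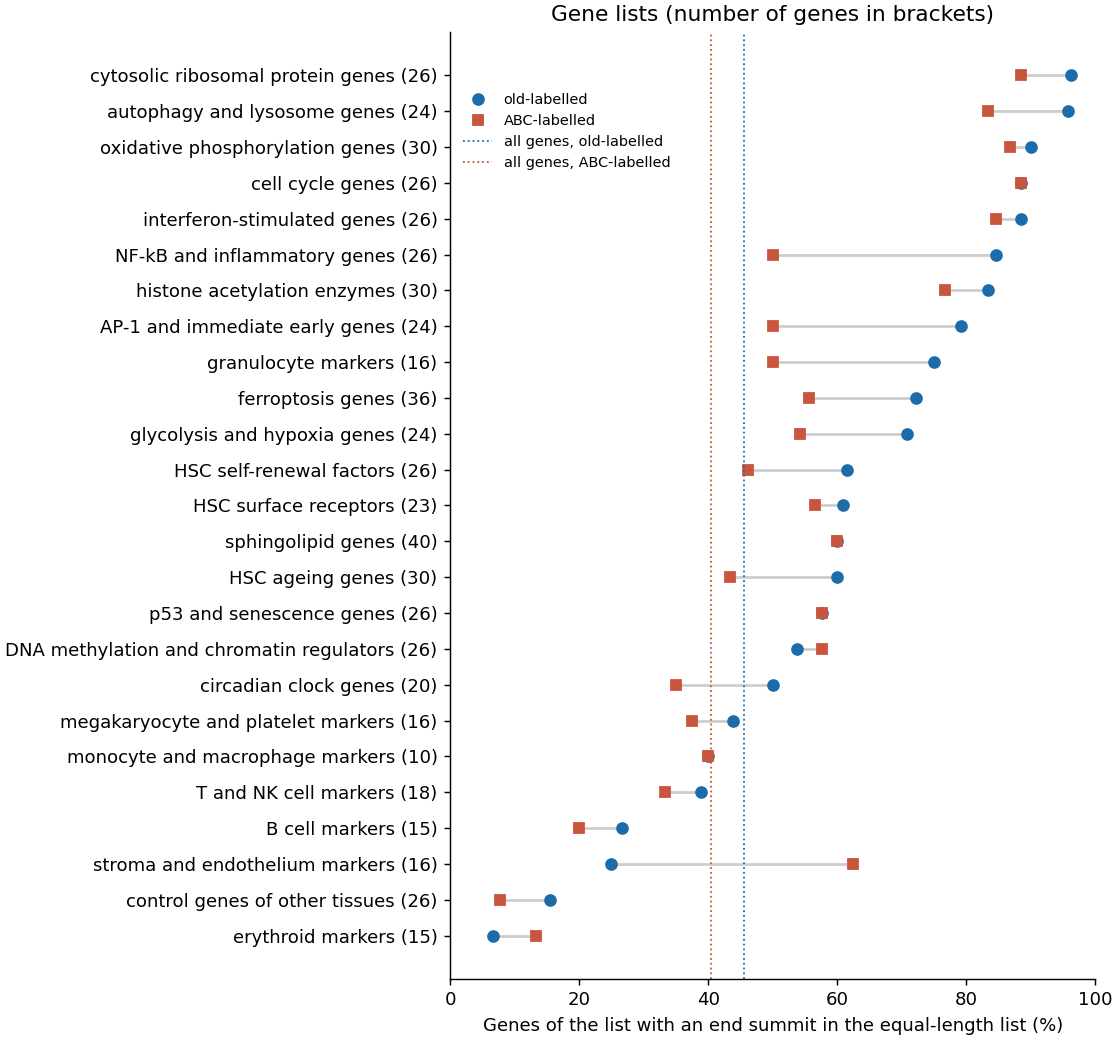
Percent of the genes of each of 25 lists with an end summit in the old-labelled (blue circles) and the ABC-labelled (red squares) equal-length list (x axis), with list sizes in brackets. Dotted lines mark the shares over all genes, 45.5% and 40.5%. The widest gaps are at NF-kB, AP-1 and granulocyte genes on the old-labelled side and at stroma and endothelium markers on the ABC-labelled side.

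Distal summits were counted under the protein-coding gene with the nearest end. Of 21883 protein-coding genes, both lists placed at least 1 distal summit at 4948, the old-labelled list alone at 1164 and the ABC-labelled list alone at 1305. Over all distal summits 46.2% (ABC-labelled) and 46.5% (old-labelled) were shared. How many genes would stand in 1 list alone for that reason was not tested. Genes with many were mostly long. The exception with the most was the zinc finger gene Zfp386, with a record of 15.5 kb, 43 old-labelled and 34 ABC-labelled distal summits and 32 of the latter shared. Arid1b, a subunit of the BAF remodelling complex, had 26 old-labelled and 21 ABC-labelled distal summits, of which 9 ABC-labelled ones were shared. Pde4d, a cAMP phosphodiesterase gene, had 22 and 18, with 15 shared. The transcriptional coregulator gene Zmiz1 had 19 and 19, with 6 shared, and Foxp1 16 and 15, with 7 shared. Similar numbers thus came with different sharing.

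Some genes held more distal summits in 1 list. The widest gaps toward the old-labelled list were at Zfp386 and at Uaca, which had 16 old-labelled and 7 ABC-labelled ones. The zinc finger gene Zfp217 had 13 and 5, the fucosyltransferase gene Fut8 12 and 5, the Polycomb cofactor gene Jarid2 16 and 9 and the Ras-responsive factor gene Rreb1 15 and 8. Toward the ABC-labelled list, Aff3 had 5 and 13, the guanine nucleotide exchange factor gene Rapgef1 2 and 10 and Sipa1l3 4 and 12. Most ABC-labelled distal summits at Rapgef1 were unshared, with 2 of 10 shared.

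The 26 HSC self-renewal factors carried 98 distal summits in the old-labelled list and 87 in the ABC-labelled one. All 21883 protein-coding genes together carried 14901 and 15112. Genes with many were mostly long, and these counts were not adjusted for the length of the record. Among the 87 ABC-labelled ones 47.1% were shared, against 46.2% over all ABC-labelled distal summits. Runx1 had 13 and 10 with 7 shared, Zfp36l2 12 and 9 with 6 shared, Erg 10 and 14 with 3 shared, Etv6 10 and 6 with 2 shared, Prdm16 8 and 7 with 4 shared, and Mecom 7 and 5 with 4 shared. Erg, Prdm16 and Mecom had no end summit in either list. The 24 AP-1 and immediate early genes carried 34 and 24, and the 26 NF-kB and inflammatory genes 19 and 12. The granulocyte markers carried 0 and 0.

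The strongest distal summits lacking a partner in the other library as deposited were found against lists of unequal length, so their distances are given as values and not compared between the sides. On the old-labelled side they began with ranks 34 near Gtpbp4 (chromosome 13 at 9011797), 229 near Scaf8 and 488 inside Camk1d. Of the 10, 5 had their nearest ABC-labelled summit between 601 and 1243 bp away and 5 between 16020 and 635906 bp. One of them, at rank 1212, lay inside the record of Spi1, which encodes PU.1, the master factor of myeloid and B cell fate (chromosome 2 at 91096831). The closest ABC-labelled summit lay at 1243 bp. The best summits within 1 kb of an end of the Spi1 record ranked 22776 (old-labelled) and 26241 (ABC-labelled). Distal places were judged from record ends alone, and whether a start site inside the record lies at this summit was not examined. On the ABC-labelled side, 9 of the 10 lay between 502 and 2052 bp from an old-labelled summit. They were led by rank 48 near Lrrc4c and rank 98 near Arhgap5, and included rank 917 at 22460 bp from an end of Ly6c2. The nearest old-labelled summits to these lay 2052, 1199 and 1182 bp away. They held ranks 1, 41 and 40 in the old-labelled list and had ABC-labelled partners of their own, so both libraries marked these places. Mia3 appeared on both sides, with an old-labelled summit at rank 926 and an ABC-labelled one at rank 836 lying 748 bp apart, so both libraries marked that place. The exception, at rank 649 near Col19a1, lay 20802 bp away.

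The best-ranked shared distal summits were led by chromosome 2 at 98667141 (ABC-labelled) and 98667142 (old-labelled), rank 1 in both lists and 1 bp from a young-labelled summit. The next were inside Chl1 (ranks 3 old-labelled and 2 ABC-labelled) and near Cr2 (4 and 4). Regions known for artefact signal were not removed, so such positions are given as values and not as sites of the mark.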

How the data were processed

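H3K9ac CUT&Tag was done on 50000 sorted HSCs per library, 1 library per group, per the labels' protocols. BWA, Picard, MACS2 and edgeR and the build mm10 are named in the submitters' processing notes, with roles, versions, control library and settings not given in the sources used here. The deposited files held, per library, 1 bp summits with a score, read as the authors' −log10 of the q-value because every list starts just above 1.30, the −log10 of 0.05. Peaks were taken as called per library.

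Summits on chromosomes 1 to 19, X and Y were placed against 21883 protein-coding RefSeq records of GRCm38.p6. Start sites and promoters came from its promoter table, which covered 81.8% of the genes used. Promoters of chromosome 18 were not analysed here. The highest-scoring 33248 summits per list were kept, with tied scores kept in genome order and given their mean rank. Python 3.11.15, pandas 2.3.3, numpy 2.4.6 and scipy 1.17.1 were used, and the scripts were tested on simulated data. No test was possible. Members and the 25 gene lists (595 of 596 entries matched) were chosen with earlier results of these data known, so a list's direction is no independent support.

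The named genes began with a fixed set. Added to it were the 12 best-ranked per direction with no summit of the other library within 5 kb or inside the record. So were the 10 with the largest rank difference per direction at a shared summit, and up to 4 per list and direction. The 10 best distal summits per kind came last. Olfactory receptor, Gm and Rik genes were left out only of the groups chosen by absence and by rank difference. Other list members, the strongest shared genes and the genes with many distal summits were chosen after their values were seen. A few genes that the rule names are not reported here.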

Additional observations from a re-analysis of the deposited data

How the results depend on the processing

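No paired analysis was possible because each group had 1 library, and for the same reason no library could be left out. Of 60 values recomputed under 14 other settings, 26 stayed within counting error (shares) or within 1.5 times (counts) and 34 moved. Shares are given as gene-end ABC-labelled, gene-end old-labelled, distal ABC-labelled and distal old-labelled. Sharing within 250 bp gave 68.6%, 64.8%, 40.8% and 41.3%, and within 1000 bp 90.0%, 79.7%, 49.5% and 48.9%. Lists as deposited gave 81.3%, 57.7%, 70.2% and 24.9%, with 3410 genes marked by the old-labelled and 487 by the ABC-labelled list alone. Scores of at least 5 gave 87.8%, 56.9%, 74.7% and 20.2%, with 3560 and 239 genes, and scores of at least 10 gave 94.3%, 41.4%, 86.6% and 17.7%, with 4734 and 66 genes. Under these 3 settings the lists differ in length by construction. Gene ends within 500 bp gave 82.2% and 74.8%, with 1179 and 377 genes, and within 2 kb 74.2% and 71.1%. Distal summits counted from all gene records gave 45.1% for the ABC-labelled list. Absence within 5 kb of an end gave 982 and 270 genes. In each setting that gave gene counts the old-labelled list alone marked more genes. The cause of the other shifts was not tested. Merging close summits, reversing ties, leaving out Y and distal limits of 5 or 20 kb moved none of the values. Depth limits the weak end of each list, and it is unknown here.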
